A study of Mus musculus with 12 samples.

Results

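Nearly all proteins of the mitochondrion are made in the cytosol and enter through a set of membrane translocases. The 39 genes of that import machinery described here were all protein-coding genes whose symbol is Tomm or Timm followed by a digit, and 14 further genes named one by one (Pam16, Dnajc19, Dnajc15, Chchd4, Grpel1, Grpel2, Pmpca, Pmpcb, Samm50, Mtx1, Mtx2, Oxa1l, Immp1l and Immp2l), out of 39179 gene IDs in the table. RNA came from prostate tissue of mice aged 4 months on a hybrid background of 129/SvImJ and C57Bl/6J, and every mouse had received paraquat, a herbicide that drives superoxide formation in cells. In the null group, 6 libraries came from mice lacking both copies of the gene under study, and 6 libraries came from wild-type mice. The series title concerns mitochondria and the start of prostate cancer. Untreated mice were not analysed here, and the genotypes are thus compared under paraquat alone. The labels used here do not say how the null allele was made. Values are log2 values that the authors had normalized between libraries, and each difference is null minus wild type on that scale. Read totals were not recovered from these values, so no counting interval is given.

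Each genotype split into a pair of sets, one of libraries 1 to 3 and one of 4 to 6. Libraries of a set lay 0.0776 to 0.141 apart (median over genes of the absolute log2 difference), against 0.274 to 0.352 across the sets of a genotype. No label ties a library to an animal, so p-values from 12 libraries may reflect technical spread only. A gene is therefore named as called where the limma fit across libraries (n = 6 per genotype) gave an adjusted p under 0.05. The adjusted p of the limma fit across sets (4 set means, n = 2 per genotype) stands beside it for the genes described in detail. Other called genes are mostly given by their difference alone, and 0 import genes were called by the fit across sets. Standard errors (SE) of genes belong to the fit across sets. Prostate markers were present in both genotypes. The 6 prostate secretory markers found in the table, probasin (Pbsn) among them, summed to 7.94% to 8.46% of the linear total in wild type against 0.867% to 1.05% in the null.

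The import pathway runs in steps. The TOM complex of the outer membrane receives precursor proteins through receptors and passes them through a pore, and the SAM complex inserts barrel proteins into the same membrane. Small TIM chaperones carry hydrophobic precursors across the intermembrane space, where the oxidoreductase encoded by Chchd4 traps other proteins by forming disulfide bonds. In the inner membrane, TIM22 inserts carrier proteins, while TIM23 and its ATP-driven motor pull presequence proteins into the matrix, where peptidases cut off the presequence. In secretory glands such as the prostate, mitochondria also supply citrate and energy for secretion.

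Most import genes were lower in the null by the fit across libraries, and 0 were called by the fit across sets. Of the 39 genes, 36 passed the filter on low values (at least 4 in 6 or more libraries), 35 of these had a difference below 0, and 32 were called lower and 0 higher across libraries. Of all 16197 genes tested, 31.8% were called lower and 34.1% higher (65.9% in all). The median difference of the 36 was -0.64, beside 0.05 for all genes tested. The null libraries lay wholly below the wild-type libraries for 25 of the 36, against 22.7% of all genes tested, and wholly above for 0, against 21.5%. Summed on the linear scale, the 39 genes took 0.148% to 0.15% of the total in wild-type libraries 1 to 3 and 0.167% to 0.175% in libraries 4 to 6, against 0.113% to 0.116% (libraries 1 to 3) and 0.144% to 0.149% (libraries 4 to 6) of the null total. Null libraries 4 to 6 thus lay close to wild-type libraries 1 to 3 on this measure. Across sets 0 of 36 were called by limma, beside 1.93% lower and 2.15% higher of all genes tested (4.09% in all), where the lowest adjusted p was 0.0571 and 18 of 36 had an unadjusted p under 0.05, against 31.1% of all genes tested. With the set treated as a random block, 18 of 36 were called lower and 0 higher, beside 17.1% called lower of all genes tested. The 14 calls lost with the block were those of Tomm40l, Tomm70a, Tomm34, Mtx2, Timm8a1, Timm9, Timm10, Timm10b, Timm23, Dnajc15, Timm44, Grpel2, Immp1l and Immp2l. The direction depended in part on scaling. With library totals made equal, the median of all genes moved from 0.05 to 0.37 and the split of all calls from 5518 higher and 5152 lower to 8611 higher and 2608 lower. The median of the import genes was then -0.33, with 19 called lower (16.1% of all genes) and 1, Pmpca, called higher, and the distance between both medians was -0.70, beside -0.69 with the authors' scaling. The 13 calls lost with library totals made equal were those of Tomm20, Tomm70a, Tomm34, Mtx2, Timm9, Timm29, Timm23, Timm50, Dnajc15, Timm44, Grpel2, Immp2l and Oxa1l. Quantile normalization ended the calls of Tomm70a, Tomm34, Mtx2 and Timm44 and gave calls of lower for Timm21 (-0.40, adjusted p 0.0135), Dnajc19 (-0.37, adjusted p 0.0237) and Pam16 (-0.50, adjusted p 0.0357).

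**Figure D1:**
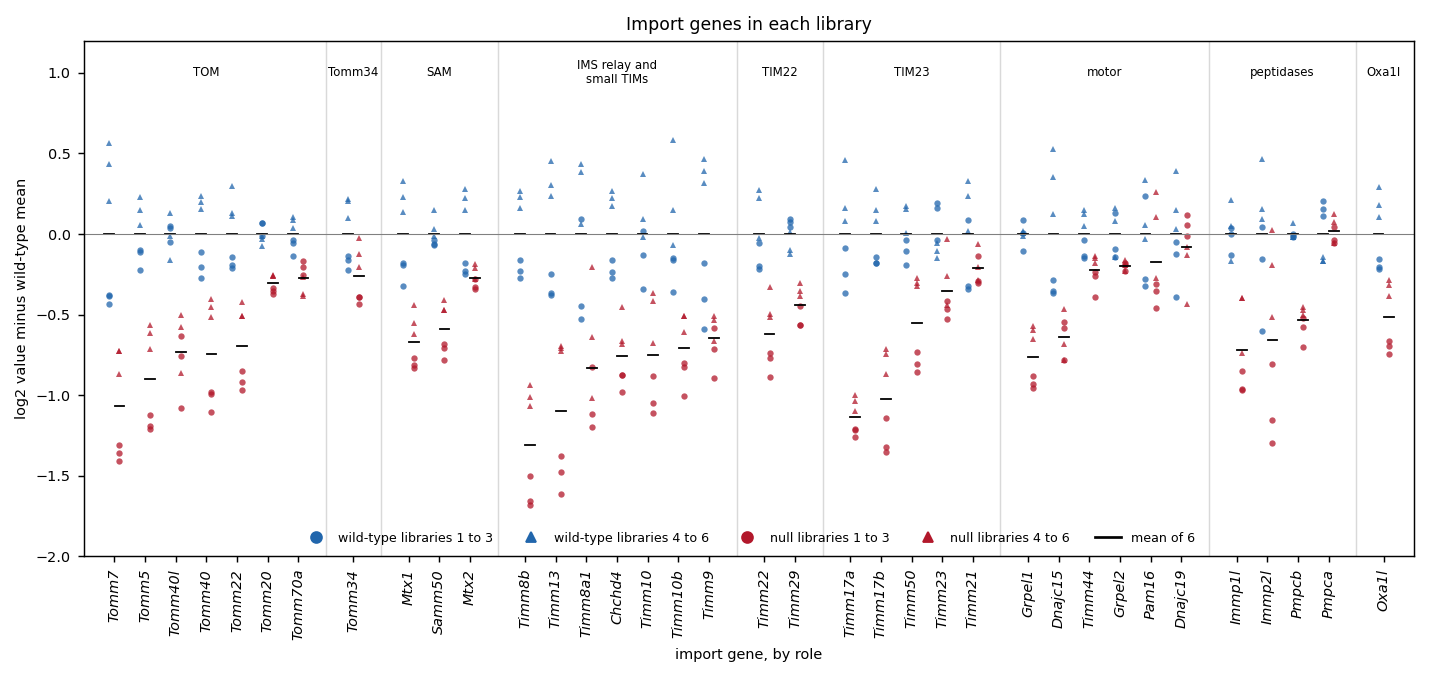
Log2 value of each of the 36 tested import genes in each library, minus the gene's wild-type mean (vertical axis), with genes grouped by role along the horizontal axis. Circles are libraries 1 to 3, triangles libraries 4 to 6, blue wild type, red null, and black bars the mean of 6 libraries. Red points lie wholly below blue points for 25 genes, and the 4 genes not called, Pmpca, Dnajc19, Pam16 and Timm21, overlap between genotypes.

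The following stretches of promoter are shown for the genes with the largest difference (Timm8b), the lowest p in the motor (Grpel1) and the subunits of one enzyme that differed from each other (Pmpca and Pmpcb). They are RefSeq promoters on GRCm38.p6, 250 bases before to 50 after the annotated start, on the plus strand in each case, at chr9:50603651-50603950 for Timm8b, chr5:36464935-36465234 for Grpel1, chr2:26389098-26389397 for Pmpca and chr5:21736910-21737209 for Pmpcb. Capitals mark every match on either strand to 5 motifs: GCGCNTGCG (the factor NRF1), CCGGAAG (ETS factors such as GABPA), AAGATGGCG (YY1), TGACGTCA (CREB and ATF) and CACGTG (E-box).
Timm8b: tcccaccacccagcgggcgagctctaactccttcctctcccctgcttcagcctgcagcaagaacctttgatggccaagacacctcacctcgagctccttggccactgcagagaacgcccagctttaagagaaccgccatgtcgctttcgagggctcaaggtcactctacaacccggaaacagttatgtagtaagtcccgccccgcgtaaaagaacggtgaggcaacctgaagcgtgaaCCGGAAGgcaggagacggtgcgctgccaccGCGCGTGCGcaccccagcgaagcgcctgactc
Grpel1: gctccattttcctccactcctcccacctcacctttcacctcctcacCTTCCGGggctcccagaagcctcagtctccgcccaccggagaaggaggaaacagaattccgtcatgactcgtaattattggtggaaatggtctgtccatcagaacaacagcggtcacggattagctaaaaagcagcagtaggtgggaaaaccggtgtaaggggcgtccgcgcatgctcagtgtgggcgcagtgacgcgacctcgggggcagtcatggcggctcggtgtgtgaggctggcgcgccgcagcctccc
Pmpca: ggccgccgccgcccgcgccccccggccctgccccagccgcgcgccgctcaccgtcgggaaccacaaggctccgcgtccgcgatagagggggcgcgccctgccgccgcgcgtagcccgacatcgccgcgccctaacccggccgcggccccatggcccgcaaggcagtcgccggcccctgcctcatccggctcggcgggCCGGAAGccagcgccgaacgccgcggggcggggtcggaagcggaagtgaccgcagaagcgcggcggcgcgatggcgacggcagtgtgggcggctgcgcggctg
Pmpcb: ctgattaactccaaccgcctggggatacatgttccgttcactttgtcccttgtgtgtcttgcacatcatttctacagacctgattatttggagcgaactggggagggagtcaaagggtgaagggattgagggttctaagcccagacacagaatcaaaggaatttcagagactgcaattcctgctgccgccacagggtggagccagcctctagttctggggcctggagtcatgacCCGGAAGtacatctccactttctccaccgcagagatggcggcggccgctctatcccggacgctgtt

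The Timm8b stretch holds an ETS match that begins at position -12 relative to the start and an NRF1 match that begins at position 18. The other stretches hold 1 ETS match each, which begins at position -204 in Grpel1, where it is read on the other strand, -53 in Pmpca and -16 in Pmpcb. Promoter sequences were found for 35 of the 39 genes, all but Timm21, Tomm7, Grpel2 and Tomm40l. The ETS letters were present for 14 of the 35 genes (40.0%, beside 9.93% of all genes with a promoter and 8.86% of all 32851 promoters). NRF1 letters were present for 8 (22.9%, beside 7.12% of genes and 6.31% of promoters) and YY1 letters for 4 (11.4%, beside 1.64% and 1.4%). The E-box was found for 5 (14.3%, beside 8.09% and 7.15%) and the CREB letters for 1, Oxa1l (2.86%, beside 2.03% and 1.79%). Among tested genes, 12 of 13 with the ETS letters and 17 of 19 without them were called lower, with median differences of -0.54 and -0.65. For NRF1 these were 7 of 8 with a median of -0.54 and 22 of 24 with a median of -0.66. These are letter matches, not measured binding sites.

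In the TOM complex all 7 tested genes were called lower, with a median difference of -0.74 and no overlap between genotypes for any of the 7. Tomm40l, which encodes a close relative of the pore protein Tomm40, had the lowest p. Tomm40l (GRCm38 chromosome 1, 171216011 to 171222514) measured 7.64 to 7.93 (median 7.82) in wild type against 6.72 to 7.30 (median 7.10) in the null. Every null library lay below every wild-type library. The difference of Tomm40l was -0.74 (SE 0.26, adjusted p 5.7e-05 across libraries, 0.124 across sets). Its position overlaps that of Nr1i3 on the other strand over 4691 bases, so reads of both may be mixed. Tomm7, which encodes a small subunit that steadies the complex, had the largest difference there. Tomm7 measured 10.78 to 11.78 (median 11.13) in wild type against 9.81 to 10.49 (median 10.13) in the null. The genotypes did not overlap, and the difference was -1.07 (SE 0.33, adjusted p 0.000534 across libraries, 0.104 across sets). The small subunit gene Tomm5 differed by -0.90, the pore gene Tomm40 by -0.74, and Tomm22, which encodes the central receptor, by -0.70. The receptors that first bind precursors differed least without a correction for transcript length. Tomm20, the receptor for presequences, was at 10.78 ± 0.06 in wild type against 10.48 ± 0.05 in the null (SD, n = 6 libraries), a difference of -0.31. Tomm70a, the receptor for carrier precursors, had the highest p in the complex. It measured 10.49 to 10.73 (median 10.63) in wild type against 10.24 to 10.46 (median 10.37) in the null. These groups lay close but apart, with a difference of -0.28 (SE 0.18, adjusted p 0.00139 across libraries, 0.325 across sets). With library totals made equal, the differences of Tomm20 and Tomm70a were 0.01 and 0.04 and neither was called. With the transcript length trend removed from each library, they were -0.64 and -0.71, beside -0.54 for Tomm22, so this order did not hold.

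Tomm34 encodes a cytosolic co-chaperone of precursor proteins and is no part of the membrane complex. It measured 9.77 to 10.21 (median 9.97) in wild type against 9.56 to 9.97 (median 9.69) in the null, so the genotypes overlapped. The difference was -0.26 (SE 0.22, adjusted p 0.0357 across libraries, 0.427 across sets). Leaving out any one of wild-type libraries 4, 5 and 6 or null libraries 1, 2 and 3 ended the call (adjusted p 0.0706 to 0.0816), and with library totals made equal the difference was 0.05.

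All 3 genes of the sorting and assembly complex were called lower, with a median of -0.59. Samm50 (GRCm38 chromosome 15, 84192241 to 84217267), which encodes the channel that inserts barrel proteins, measured 10.91 to 11.13 (median 10.96) in wild type against 10.20 to 10.57 (median 10.40) in the null. The genotypes did not overlap. The difference of Samm50 was -0.59 (SE 0.19, adjusted p 1.98e-05 across libraries, 0.115 across sets). Mtx1 and Mtx2 encode the metaxins, which sit on the cytosolic face of the complex. Mtx1 differed by -0.67 (SE 0.23, adjusted p 0.000285 across libraries, 0.124 across sets), and its position shares 11658 bases with Thbs3 on the other strand. Mtx2 measured 9.41 to 9.94 (median 9.64) in wild type against 9.32 to 9.47 (median 9.38) in the null. Its null set means, 9.34 and 9.43, lay near wild-type libraries 1 to 3, at a set mean of 9.44, and below libraries 4 to 6, at 9.88. The difference of -0.27 (SE 0.22, adjusted p 0.0284 across libraries, 0.419 across sets) lost its call without any one of wild-type libraries 4, 5 and 6 or null libraries 1 and 2 (adjusted p 0.054 to 0.0653). It was 0.04 with library totals made equal.

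The intermembrane space genes had the lowest median of the groups with 3 or more tested genes, -0.76, and all 7 tested were called lower. Timm8b (GRCm38 chromosome 9, 50603910 to 50605320), which encodes a small chaperone of hydrophobic precursors, had the largest difference of the 36. It measured 10.14 to 10.68 (median 10.41) in wild type against 8.73 to 9.47 (median 9.12) in the null. Both sets of the null lay below both sets of the wild type, and the null level was 0.404 of the wild-type level on the linear scale. The difference of Timm8b was -1.31 (SE 0.28, adjusted p 1.29e-05 across libraries, 0.0572 across sets). Timm13 followed, with 10.87 to 11.70 (median 11.24) in wild type against 9.63 to 10.55 (median 10.19) in the null, a difference of -1.10 (SE 0.34, adjusted p 0.000502 across libraries, 0.103 across sets). The other chaperone pair of this space is made by Timm9 and Timm10. Timm10 differed by -0.75 and Timm10b by -0.71. Timm9 had the highest p of the group, with 7.58 to 8.64 (median 8.24) in wild type against 7.28 to 7.66 (median 7.55) in the null. Null libraries 1, 4 and 5 (7.59, 7.64 and 7.66) exceeded wild-type library 2 (7.58), so the genotypes overlapped. The difference of Timm9 was -0.65 (SE 0.32, adjusted p 0.00608 across libraries, 0.219 across sets). It was not called with library totals made equal (-0.33, adjusted p 0.0868), without wild-type libraries 4 to 6 (-0.26, adjusted p 0.0855) or without null libraries 1 to 3 (-0.57, adjusted p 0.0607). Chchd4 differed by -0.76 (SE 0.26, adjusted p 0.000167 across libraries, 0.123 across sets). Timm8a1, a low gene, was at 5.89 ± 0.41 in wild type against 5.05 ± 0.37 in the null (SD, n = 6 libraries).

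Both genes of the carrier translocase were called lower. Timm29, which encodes a subunit of the complex, measured 10.37 to 10.59 (median 10.52) in wild type against 9.93 to 10.19 (median 10.08) in the null. Its difference was -0.44 (SE 0.18, adjusted p 6.66e-05 across libraries, 0.166 across sets), and -0.12 (adjusted p 0.197) with library totals made equal. Timm22, which encodes the channel itself, measured 9.15 to 9.64 (median 9.32) in wild type against 8.48 to 9.04 (median 8.74) in the null. The genotypes did not overlap for either gene. Timm22 differed by -0.62 (SE 0.23, adjusted p 0.000454 across libraries, 0.139 across sets).

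In the presequence translocase 4 of 5 genes were called lower, with a median of -0.55. Timm17a (GRCm38 chromosome 1, 135295213 to 135313778), which encodes a core channel subunit, measured 9.11 to 9.94 (median 9.47) in wild type against 8.22 to 8.48 (median 8.33) in the null. Each null library lay below all wild-type libraries, and the null level was 0.454 of the wild-type level on the linear scale. The difference of Timm17a was -1.14 (SE 0.24, adjusted p 5.33e-06 across libraries, 0.0571 across sets). Its relative Timm17b, on the X chromosome, differed by -1.03 (SE 0.25, adjusted p 2.3e-05 across libraries, 0.0711 across sets). The receptor gene Timm50 differed by -0.55, and by -0.24 (adjusted p 0.107) with library totals made equal. Timm23, which encodes the partner of both in the core, differed by -0.36 at a low level, 6.86 ± 0.14 in wild type against 6.5 ± 0.18 in the null (SD, n = 6 libraries). The call of Timm23 (adjusted p 0.0128 across libraries, 0.422 across sets) ended with library totals made equal (-0.04, adjusted p 0.78) and with the length trend removed (-0.15, adjusted p 0.301). Timm21 links the inner membrane complex to TOM and had the highest p. It measured 7.46 to 8.13 (median 7.85) in wild type against 7.5 to 7.74 (median 7.56) in the null. The null values lay within the wild-type range. The difference was -0.21 (SE 0.26, adjusted p 0.14 across libraries, 0.594 across sets), and it was called without wild-type library 3 (adjusted p 0.0481). It was 0.1 with library totals made equal. Timm21 shares 5334 bases with Fbxo15 on the other strand.

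The motor that pulls presequence proteins through TIM23 was less uniform, with 4 of 6 genes called lower and a median of -0.21. Grpel1 (GRCm38 chromosome 5, 36464998 to 36474080), which encodes the nucleotide exchange factor of the matrix Hsp70, had the lowest p of the group. It measured 10.56 to 10.75 (median 10.67) in wild type against 9.71 to 10.09 (median 9.89) in the null. Both genotypes were tight and did not overlap. The difference of Grpel1 was -0.76 (SE 0.20, adjusted p 3.43e-06 across libraries, 0.0801 across sets). Dnajc15, which encodes a J protein of the motor, differed by -0.64, and by -0.32 (adjusted p 0.0528) with library totals made equal. Its set means were 8.44 in wild-type libraries 1 to 3 and 9.11 in libraries 4 to 6, and 8.14 and 8.13 in the null. Timm44, the tether of Hsp70 at the channel, differed by -0.22 (SE 0.19, adjusted p 0.0125 across libraries, 0.435 across sets), and by 0.09 with library totals made equal. Grpel2, the relative of Grpel1, differed by -0.20 (SE 0.21, adjusted p 0.0257 across libraries, 0.526 across sets). That call was lost without wild-type library 2, 4 or 5 (adjusted p 0.0541 to 0.0575), and the difference was 0.12 with library totals made equal. Pam16 and Dnajc19, a regulatory and a stimulating J protein, were not called with the authors' scaling. Dnajc19 measured 6.64 to 7.42 (median 7.02) in wild type against 6.60 to 7.15 (median 6.99) in the null. Most of both ranges was shared. The difference of Dnajc19 was -0.08 (SE 0.30, adjusted p 0.61 across libraries, 0.864 across sets), and that of Pam16 was -0.17. With library totals made equal these were 0.23 and 0.14. Dnajc19 overlaps Fxr1 on the other strand over 14303 bases and Pam16 overlaps Glis2 over 8461 bases.

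Of the peptidase genes 3 of 4 were called lower, with a median of -0.60. Pmpca and Pmpcb encode the alpha and beta subunits of the enzyme that removes presequences in the matrix, and the beta subunit carries the active site. Pmpcb (GRCm38 chromosome 5, 21737141 to 21757152) measured 10.39 to 10.48 (median 10.39) in wild type against 9.71 to 9.96 (median 9.90) in the null. Its 6 null libraries lay below all wild-type libraries. The difference of Pmpcb was -0.54 (SE 0.18, adjusted p 2.64e-06 across libraries, 0.117 across sets). Pmpca (GRCm38 chromosome 2, 26389339 to 26397122) measured 9.87 to 10.24 (median 10.02) in wild type against 9.98 to 10.16 (median 10.04) in the null. Its null libraries lay within the wild-type range. The difference of Pmpca was 0.02 (SE 0.20, adjusted p 0.861 across libraries, 0.959 across sets). Pmpca was at 10.19 in wild-type libraries 1 to 3 and 9.88 in libraries 4 to 6, while most import genes were higher in libraries 4 to 6. It was called higher without wild-type libraries 1 to 3 (0.17, adjusted p 0.0206) and with library totals made equal (0.33, adjusted p 0.0089). Immp1l and Immp2l encode the subunits of the inner membrane peptidase and differed by -0.72 and -0.66. The call of Immp2l (adjusted p 0.0294 across libraries, 0.303 across sets) was lost without any one of wild-type libraries 4, 5 and 6 or null libraries 1, 2 and 3 (adjusted p 0.0532 to 0.0673), and with library totals made equal (-0.34, adjusted p 0.227). The gene shares 34764 bases with Lrrn3 on the other strand. Oxa1l, which encodes the insertase for proteins made within the mitochondrion, measured 10.80 to 11.31 (median 10.99) in wild type against 10.27 to 10.73 (median 10.49) in the null. The genotypes did not overlap, and the difference was -0.52 (SE 0.23, adjusted p 0.00164 across libraries, 0.183 across sets). With library totals made equal it was -0.20 (adjusted p 0.131) and not called.

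Ratios between related genes within a library do not move with the scaling of that library. They can still move with the transcript length trend where the partners differ in length. Of 11 listed pairs, 9 had both genes past the filter, and each was tested with a two-sided exact permutation test of the 12 libraries, adjusted over the 9 pairs (smallest possible p 0.00216). The SE of a ratio comes from the spread of the 12 libraries taken as independent, not from the sets, and may reflect technical spread only. The ratio differed between genotypes for 5 pairs. Ratios of other gene pairs were not tested, so no share stands beside this count. Of all single genes tested, 65.9% were called across the same libraries, so the count is not read as particular to import genes. Pmpca over Pmpcb ran from -0.61 to -0.17 in wild type and from 0.02 to 0.37 in the null on the log2 scale, with no overlap, a change of 0.55 (SE 0.09, exact adjusted p = 0.00487). Grpel1 over Grpel2 was 1.87 to 2.24 in wild type and 1.24 to 1.63 in the null, a change of -0.57 (SE 0.09, exact adjusted p = 0.00487). The Hsp70 exchange factor genes thus differed in the size of their change. Mtx1 over Mtx2 was 0.23 to 0.42 in wild type and -0.23 to 0.14 in the null, a change of -0.40 (SE 0.06, exact adjusted p = 0.00487). Dnajc19 over Dnajc15 was -2.12 to -1.44 in wild type and -1.42 to -0.90 in the null, a change of 0.56 (SE 0.15, exact adjusted p = 0.00487). These 4 pairs did not overlap between genotypes, from which it follows that each kept its sign in all 4 combinations of 1 wild-type with 1 null set. Without either wild-type set, the exact adjusted p of these 4 was 0.0536. Their p was then the smallest that the fewer regroupings allow. Whether that smallest p passes after adjustment depends on how many of the 9 pairs share it, so no conclusion is drawn from it. Over set means alone the exact test cannot go below 0.333. Dnajc19 over Dnajc15 did not pass with quantile normalization (0.33, exact adjusted p = 0.0731). With the length trend removed, the differences of single genes were -0.06 for Pmpca and -0.76 for Pmpcb, and -0.90 for Grpel1 and -0.41 for Grpel2. They were -0.53 for Mtx1 and -0.32 for Mtx2, and -0.07 for Dnajc19 and -1.09 for Dnajc15. Timm8a1 over Timm8b changed by 0.48 (SE 0.16, exact adjusted p = 0.0312), with overlap and with Timm8a1 near the floor. It did not pass with quantile normalization (0.09, exact adjusted p = 0.74), with the length trend removed (0.36, exact adjusted p = 0.0584), or without any one of wild-type libraries 2, 3 and 6 or null libraries 1, 3 and 4 (exact adjusted p = 0.0623 in each case). No difference was detected for Timm17a over Timm17b (change -0.11, SE 0.09), Timm10 over Timm10b (-0.04, SE 0.11), Tomm40 over Tomm40l (-0.01, SE 0.16) and Immp1l over Immp2l (-0.07, SE 0.22), with exact adjusted p between 0.380 and 0.972. Timm17a over Timm17b did pass with the length trend removed (-0.67, exact adjusted p = 0.00487) and without null libraries 1 to 3 (-0.27, exact adjusted p = 0.0429). Without null libraries 1 to 3, its p was likewise the smallest that the fewer regroupings allow.

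**Figure D2:**
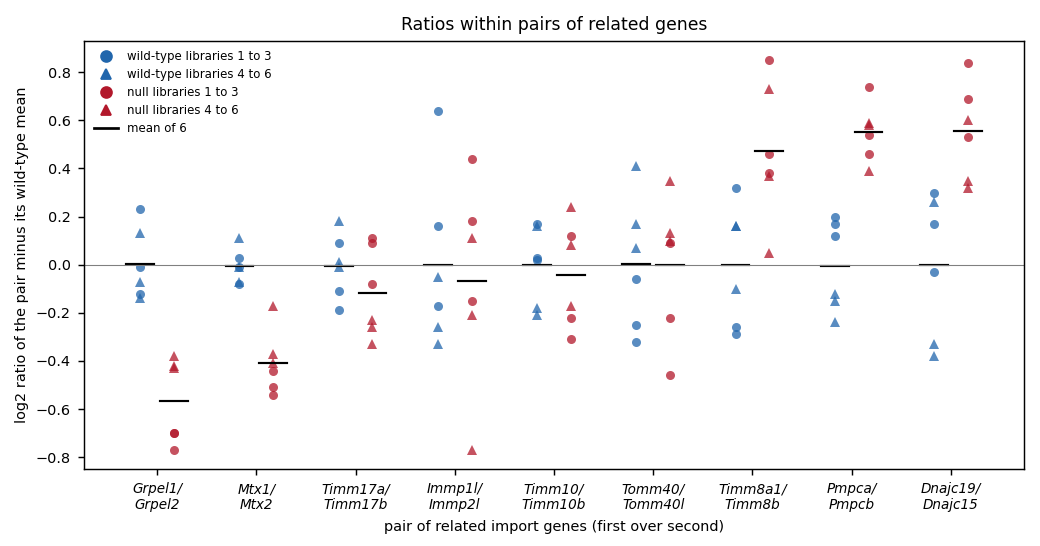
Log2 ratio of the first over the second gene of each of 9 pairs in each library, minus the pair's wild-type mean (vertical axis), by pair (horizontal axis). Symbols are as in the plot of import genes by library. Null libraries lie wholly below wild type for Grpel1/Grpel2 and Mtx1/Mtx2 and wholly above for Pmpca/Pmpcb and Dnajc19/Dnajc15.

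The import genes also varied between the sets of a genotype, in the same direction in both. Libraries 4 to 6 were above libraries 1 to 3 for 31 of 36 genes in wild type, with a median of 0.34, and for 32 of 36 in the null, with a median of 0.30, while the medians over all genes tested were 0.01 and 0.03. The widest gaps were 0.80 in wild type, for Tomm7, and 0.86 in the null, for Immp2l. Despite these gaps, 30 of 36 genes were lower in the null in all 4 set pairings. The pairings ran from -1.83 to -0.78 for Timm8b and from -1.46 to -0.81 for Timm17a. For the 25 genes whose libraries did not overlap between genotypes, this follows from that lack of overlap. Over all genes tested, 32.4% were lower in all 4 pairings. Without null libraries 1 to 3 the median was -0.46 with 24 called lower (27.2% of all genes), and without null libraries 4 to 6 it was -0.80 with 30 called lower (33.7%). Without wild-type libraries 4 to 6 it was -0.47 with 25 called lower (26.6%), and without wild-type libraries 1 to 3 it was -0.76 with 32 called lower (33.5%). Calls lost without null libraries 1 to 3 were those of Tomm34, Mtx2, Timm8a1, Timm9, Timm23, Timm44, Grpel2 and Immp2l, and without wild-type libraries 4 to 6 the same genes apart from Timm23. Mtx2 and Grpel2 were lost without null libraries 4 to 6, and without wild-type libraries 1 to 3 Timm23 was lost and Timm21 was called lower (-0.41, adjusted p 0.00433), besides Pmpca as given above. Marker genes of several tissues and cell types were also summed in each library. Seminal vesicle markers, 7 of 8 past the filter with Svs1 below it, took 16.2% to 16.4% of the linear total in null libraries 1 to 3, 0.716% to 0.728% in null libraries 4 to 6 and 0.000267% to 0.00115% in wild type. Endothelial markers (5 of 5 past the filter) took 0.0058% to 0.00692% in wild type and 0.00884% to 0.0122% in the null. Those of leukocytes (6 of 7 listed were found, all past the filter) took 0.00351% to 0.00437% and 0.00685% to 0.00974%. Those of adipocytes (5 of 5) took 0.00161% to 0.00301% and 0.00637% to 0.00903%. Smooth muscle and fibroblast markers (10 of 10) took 0.492% to 0.540% and 0.496% to 0.686%, both over all libraries of a genotype. Epithelial markers (7 of 7) took 0.204% to 0.208% in wild-type libraries 1 to 3 and 0.248% to 0.258% in libraries 4 to 6, and in the null 0.209% to 0.21% and 0.28% in the same sets. Their sum was thus higher in libraries 4 to 6 of both genotypes, as were most import genes. The single markers went both ways between genotypes. Across libraries, 2 of the 7 epithelial genes were called lower and 4 higher, against 31.8% and 34.1% of all genes tested. These counts were 4 and 5 of 10 smooth muscle and fibroblast genes, and 1 and 4 of 5 endothelial genes. Skeletal muscle markers (4 of 8 past the filter) took 0.0173% to 0.0200% and 0.0215% to 0.0232%. Myh2, Myh4, Tnnt3 and Atp2a1 were below the filter, and the sums of markers include such genes. The part of these markers and of the secretory genes in the differences was not tested, apart from the values without each set. In RNA from whole tissue, fewer cells of a type and less RNA per cell cannot be told apart.

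Differences followed transcript length over all genes, and the import genes lay below that trend. The median difference of all genes was -0.37 in the quintile with the shortest transcripts and 0.49 in the quintile with the longest. The 11 import genes in the shortest quintile had a median of -0.75, and 10 of them were below the median of the quintile. The 3 in the longest quintile, Tomm70a, Timm17a and Dnajc15, had a median of -0.64, against 0.49 for all genes there. In all, 33 of 36 were below the median of their own quintile. With the length trend removed from each library, the median of the import genes was -0.64, beside -0.07 for all genes, and 30 were called lower and 0 higher, beside 37.5% of all genes called lower. Timm23 and Immp2l lost their calls. Over set means with the length trend removed, Timm17a (-1.66, adjusted p = 0.0314) and Timm8b (-1.02, adjusted p = 0.0364) were called lower, beside 3.6% of all genes. Timm17a has the longest annotated transcript of the group, 7280 bases, and Timm8b the shortest, 518 bases. This last combination was chosen after the data were seen.

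**Figure D3:**
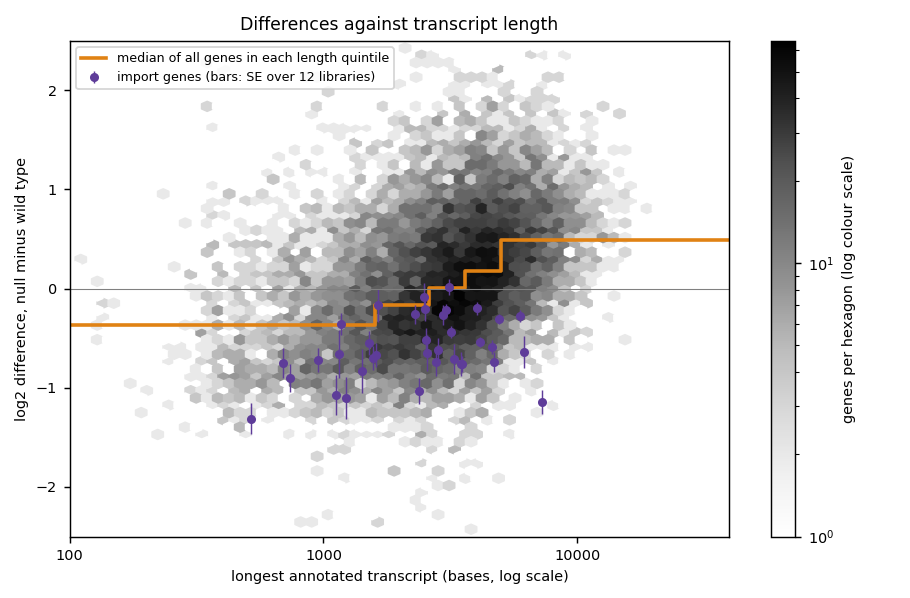
Log2 difference, null minus wild type (vertical axis), against the length of the longest annotated transcript (horizontal axis, log scale), with tested genes as grey hexagons and import genes as purple points with the SE over 12 libraries. The orange line is the median of all genes in each length quintile, which rises from -0.37 to 0.49, and 33 of 36 import genes lie below the median of their quintile. The plot leaves out 308 genes beyond its limits and 159 genes without an annotated length.

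Related genes outside the membership were described from lists, whose counts stand beside 31.8% of all genes called lower and 34.1% called higher across libraries. Of 20 genes on the list for other import and maturation, 14 were called lower, 2 were called higher and the median difference was -0.40. That list is broad and also holds genes outside the import machinery, such as Vdac1 and Arl2bp. Mipep, which encodes a further presequence peptidase, differed by -0.85 (adjusted p 5.52e-06 across libraries, 0.0829 across sets). Vdac1, the main outer membrane porin gene, differed by -0.58, and Arl2bp, which encodes a binding protein of the small GTPase Arl2, by -0.54. The 2 called higher, Mtx3 (0.51) and Pitrm1 (0.30), were named after their values were seen. With the length trend removed, they differed by 0.05 and 0.10. All 7 genes of the MICOS list, which shapes cristae and touches SAM, were called lower, with a median of -0.57, led by Minos1 (-1.10), Chchd3 (-0.57) and 2410015M20Rik (-0.98). Among 15 genes of mitochondrial chaperones and proteases, 9 were called lower, 1 was called higher and the median was -0.30. Htra2, a protease gene of the intermembrane space, was the 1 higher (1.04, adjusted p 2.01e-05 across libraries, 0.0803 across sets), while Trap1 differed by -0.59 and Clpp by -0.97. With the length trend removed, Htra2 differed by 1.05. Of 10 cytosolic chaperone genes that deliver precursors, 7 were called lower and 1, Dnaja1 (0.29), was called higher. The median was -0.51, with Hsp90ab1 at -0.79, Dnajb1 at -0.66 and Hspa8 at -0.94. Dnaja1 was at -0.11 with the length trend removed. Across sets limma called 0 genes of these 4 lists, where 7 of 20, 4 of 7, 7 of 15 and 3 of 10 had an unadjusted p under 0.05, against 31.1% of all genes tested, so the first and the last list lay near the share of all genes. The 14 regulators of nuclear genes for mitochondria went both ways, with 6 called lower, 4 higher and a median of -0.07, counts near the shares of all genes. Atf4 and Ddit3, transcription factor genes of the stress response, fell by 1.41 (SE 0.23, adjusted p 0.0323 across sets) and 1.84 (SE 0.28, adjusted p 0.0257 across sets), the 2 genes of these lists that were called across sets. Ppargc1a, a coactivator gene of mitochondrial biogenesis, differed by 0.93 (adjusted p 1.2e-05 across libraries, 0.103 across sets), and by 0.46 with the length trend removed. Nrf1 and Gabpa, whose motif letters were searched above, differed by -0.04 and 0.24 and were not called.

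**Figure D4:**
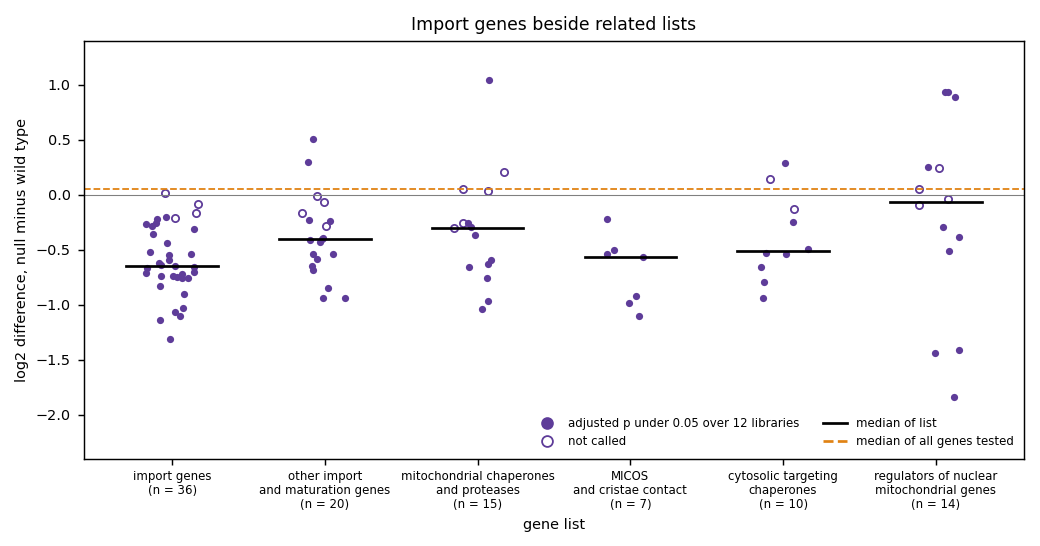
Log2 difference, null minus wild type (vertical axis), of the 36 import genes and of the genes of 5 related lists (horizontal axis). Filled points passed an adjusted p of 0.05 over 12 libraries, black bars are list medians (-0.64 for the import genes, -0.07 for the regulators) and the dashed line is the median of all genes tested, 0.05.

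Tomm6, Tomm20l and Timm8a2 did not pass the filter. Tomm6, which encodes a small TOM subunit, was at 2.46 to 3.58 in wild type and 2.52 to 3.36 in the null, and Tomm20l was at 1.96 to 3.43 and 1.84 to 3.43. Timm8a2 was at 1.53 to 3.12 and 1.43 to 2.95. All 3 lie on the floor of the scale, where values do not rank genes. Tomm6 shares 1648 bases with Gm21981 on the same strand, listed at 1.27 to 3.11, and the sources used here do not give how shared reads were counted, so the value cannot be read as low expression. In all, 25 of the 39 genes overlap another gene, 22 of them one on the other strand, and near-identical copies elsewhere in the genome can also take reads. Per kilobase of the longest transcript, wild-type levels were highest for Timm8b (11.36 on the log2 scale), Tomm7 (11.05) and Timm13 (10.95) and lowest, among tested genes, for Pam16 (4.50). This division takes the values to scale with read counts, which the sources used here do not state. It also takes the longest transcript to be the expressed one.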

How the data were processed

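Poly-A RNA from 12 prostate libraries was prepared with a TruSeq kit and sequenced on a HiSeq2000, per the labels' protocols. Builds mm9 and GRCm38.p2 and the tools CASAVA 1.8.2, TopHat, Cufflinks and DESeq appear, without roles, in the submitters' processing notes. The authors deposited 1 table of log2 values, already normalized between libraries, for 39179 gene IDs. The sources used here do not give the transformation, the strand setting or the handling of shared reads. Of the IDs, 37693 (96.2%) matched GENCODE M21 on GRCm38, whose gene positions and longest transcripts were used.

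The filter (a value of 4 or above in no fewer than 6 libraries) kept 16197 genes. Genotypes were compared by a two-sided limma trend fit (limma 3.58.1, R 4.3.3) without pseudocount, and p-values were adjusted over these genes by Benjamini-Hochberg. Read counts were not recovered, so no count test was run. Library sets came from hierarchical clustering within each genotype, with 2 clusters, and their means entered a second limma fit. Both fits give the same differences. Shares of the linear total use 2 to the power of the value over all IDs. The limma fit was tested on data simulated with independent libraries, which cannot show how the library sets affect its p-values. Python 3.11.15 and scipy 1.17.1 were used for the rest.

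The members and lists were chosen with earlier results of these data known. Named genes are, in each role, the tested member with the lowest and the highest limma p over 12 libraries, the paralog pairs, and in other lists the 3 genes with the lowest p. Further members named are mostly given by their difference. Outside this rule, Tomm7, Timm13, Chchd4 and Timm44 are given with SE and both adjusted p, and Timm23 with both adjusted p. Alternatives were other scalings, filters, variance models, library weights, a damped log2 scale, removal of the length trend, and leaving out each library and each set. A search for cysteine motifs in protein sequences was planned and not run. Values of the targeted gene are not reported here.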

Additional observations from a re-analysis of the deposited data

Results flagged for a closer look

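In wild type, the highest library of Pmpcb was library 4 at 10.48, while the other 5 lay between 10.39 and 10.41, so its gap to the nearest divided by the range was 0.732, above the critical value of Dixon's test for 6 libraries. It was the 1 such library among 90 groups of 6 values examined (36 genes and 9 ratios in 2 genotypes), and chance gives about 5% of groups. Without that library the difference of Pmpcb was -0.52 (limma, adjusted p 9.91e-06).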

How the results depend on the processing

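The count of genes called, 10670, was 5052 with the set as a random block, 662 over set means and 991 over set means with the length trend removed, and 9923 to 10637 without each library. Import genes called lower, 32, were 18, 0 and 2 in the same 3 analyses, 19 with library totals made equal, and 28 to 33 without each library, and those called higher were 0 without each library and 1, Pmpca, with library totals made equal and without wild-type libraries 1 to 3. The median of -0.64 was -0.33 with library totals made equal, -0.46 without null libraries 1 to 3 and -0.57 to -0.70 without each library. The cause of these changes was not tested.

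Differences that changed sign with library totals made equal were those of Dnajc19 (0.23), Pam16 (0.14), Grpel2 (0.12), Timm21 (0.10), Timm44 (0.09), Tomm34 (0.05), Mtx2 (0.04), Tomm70a (0.04) and Tomm20 (0.01). Dnajc19 was also at 0.07 with totals made equal without the 50 most abundant genes, 0.05 without null libraries 4 to 6 and 0.11 without wild-type libraries 4 to 6, and Pam16 at 0.03 without null libraries 1 to 3. Pmpca was at -0.01 with library weights, -0.06 with the length trend removed (and over set means with it removed), -0.01 without null libraries 4 to 6, -0.14 without wild-type libraries 4 to 6, and -0.02 to 0.06 without each library.

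Among the ratios, 4 pairs had an exact adjusted p of 0.0536 when either wild-type set was left out. Their p was then the smallest that the fewer regroupings allow. Without wild-type libraries 1 to 3 and without 4 to 6 they were 0.70 and 0.41 for Dnajc19/Dnajc15, -0.54 and -0.60 for Grpel1/Grpel2, -0.42 and -0.39 for Mtx1/Mtx2, and 0.72 and 0.39 for Pmpca/Pmpcb. With quantile normalization Dnajc19/Dnajc15 was 0.33 and Timm8a1/Timm8b 0.09. Timm8a1/Timm8b was 0.36 with the length trend removed, 0.39 without null libraries 1 to 3, 0.40 without wild-type libraries 1 to 3 and 0.55 without wild-type libraries 4 to 6. Timm17a/Timm17b was -0.67 with the length trend removed, -0.27 without null libraries 1 to 3 and 0.05 without null libraries 4 to 6. Ratios near 0 changed sign. Immp1l/Immp2l was 0.04 with quantile normalization, 0.16 without null libraries 4 to 6 and 0.14 without wild-type libraries 1 to 3. Timm10/Timm10b was 0.32 with the length trend removed, 0.05 without null libraries 1 to 3 and 0.03 without wild-type libraries 1 to 3. Tomm40/Tomm40l was 0.28 with quantile normalization and with the length trend removed, 0.19 without null libraries 1 to 3 and 0.21 without wild-type libraries 4 to 6. Without each library the ratios ran from 0.48 to 0.62 for Dnajc19/Dnajc15, -0.61 to -0.52 for Grpel1/Grpel2, -0.45 to -0.38 for Mtx1/Mtx2, 0.51 to 0.59 for Pmpca/Pmpcb, 0.40 to 0.56 for Timm8a1/Timm8b, -0.16 to -0.07 for Timm17a/Timm17b, -0.10 to 0.01 for Timm10/Timm10b, -0.07 to 0.09 for Tomm40/Tomm40l and -0.17 to 0.07 for Immp1l/Immp2l. No paired analysis was possible because the labels give the libraries of the genotypes no shared numbers. Without counts, the depth behind low genes such as Pam16, Timm8a1 and Immp2l is not known.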
